A study of Homo sapiens with 4 samples.

Results

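The regions described here are the stretches of chromosome 7 called enriched for histone H3 acetylated at lysine 9 (H3K9ac) in T98G, an established human glioblastoma cell line. They are all chromosome 7 entries of the deposited region lists, 1823 of 39303 regions in cells with an shRNA against RBBP4 (shRBBP4) and 1660 of 26828 regions in cells with the control shRNA (shNT). Chromosome 7 thus supplied 4.64% of all shRBBP4 regions and 6.19% of all shNT regions. It was selected on measured values, the number of regions in each list. Both groups are T98G cells at passage 4 that received a lentiviral shRNA construct, and both were grown in the same serum-containing medium. Each group has 1 library made by chromatin immunoprecipitation and sequencing (ChIP-seq) with the same rabbit antibody, so no difference between them has a replicate check and no p-value is given. Whether the transduced cells were a pool or a clone is not given in the labels, and neither the level of RBBP4 nor the 2 input libraries were analysed. Positions are on hg19 and starts are counted from 1.

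H3K9ac marks nucleosomes at active promoters and enhancers, and it is removed by histone deacetylases. RBBP4 is a histone-binding protein and a shared subunit of several chromatin complexes, deacetylase complexes among them. Gain of chromosome 7 is one of the most frequent chromosome changes in glioblastoma. The chromosome carries EGFR on its short arm (7p) and MET on its long arm (7q), both growth factor receptor genes that are recurrently altered in this tumour.

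EGFR encodes the receptor for epidermal growth factor and MET the receptor for hepatocyte growth factor. Their promoters are shown because both genes serve as landmarks for the windows described further on. The lines give the 250 bases before each gene's start from RefSeq on GRCh38.p14, plus strand, with every CpG dinucleotide in capitals.
EGFR, chr7:55018767-55019016: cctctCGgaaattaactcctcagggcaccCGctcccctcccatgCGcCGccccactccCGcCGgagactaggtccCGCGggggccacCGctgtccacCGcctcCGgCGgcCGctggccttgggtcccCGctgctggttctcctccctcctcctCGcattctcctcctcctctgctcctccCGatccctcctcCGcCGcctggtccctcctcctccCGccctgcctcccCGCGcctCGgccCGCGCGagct
MET, chr7:116671946-116672195: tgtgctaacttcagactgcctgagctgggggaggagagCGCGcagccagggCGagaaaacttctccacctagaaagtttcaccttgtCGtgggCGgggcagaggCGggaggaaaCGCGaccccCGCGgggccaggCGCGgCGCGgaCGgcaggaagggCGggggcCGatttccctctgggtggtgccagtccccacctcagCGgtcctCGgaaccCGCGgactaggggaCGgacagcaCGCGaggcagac
The EGFR stretch holds 25 CpG and the MET stretch 24, against a median of 11 over 35116 such promoters in the table, and both are CpG-rich. Of all these promoters, 78.4% had fewer CpG than the EGFR stretch and 76.3% fewer than the MET stretch. These 2 positions belong to another build than the regions and cannot be set beside them, so no region is assigned to either promoter.

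Chromosome 7 was chosen for its low number of shRBBP4 regions relative to shNT, so the ratio is a description. With 1823 shRBBP4 and 1660 shNT regions the ratio was 1.098, the lowest of 23 chromosomes, next to 1.104 on chromosome 13 and 1.15 on chromosome 8. All other chromosomes together had 37480 and 25168 regions, a ratio of 1.49. The side of 1 depends on the length of the lists: with the shRBBP4 list reduced to its highest-scoring regions, as many as the shNT list has, the chromosome 7 ratio was 0.761. In such lists the ratio over all chromosomes is 1 by construction. The arms were not alike. On 7p the lists held 637 shRBBP4 and 630 shNT regions, a ratio of 1.01 (95% interval 0.904 to 1.13), and on 7q 1186 and 1030, a ratio of 1.15 (1.06 to 1.25). In lists of equal length the ratio was 0.678 on 7p and 0.812 on 7q. The intervals are exact and cover counting error only. They take regions as independent, although neighbouring regions often belong to one promoter.

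In covered bases the arms lay on opposite sides of equality, but equality is not the balance of the whole lists, whose region numbers have a ratio of 1.465. On 7p the shRBBP4 regions covered 175.7 kb and the shNT regions 212.1 kb. On 7q they covered 375.6 kb in shRBBP4 and 331.5 kb in shNT. The bases covered by all regions of all chromosomes were not computed. Within groups of regions of both lists, joined across gaps of up to 1 kb, they were 10084.8 kb in shRBBP4 and 7616.6 kb in shNT over all chromosomes. Within such groups on 7q they were 341.1 and 316.4 kb. The median region on 7p was 205 bp wide in shRBBP4 and 243.5 bp in shNT, while on 7q the medians were 217 and 223.5 bp. Over all chromosomes the medians were 213 and 210 bp.

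**Figure D1:**
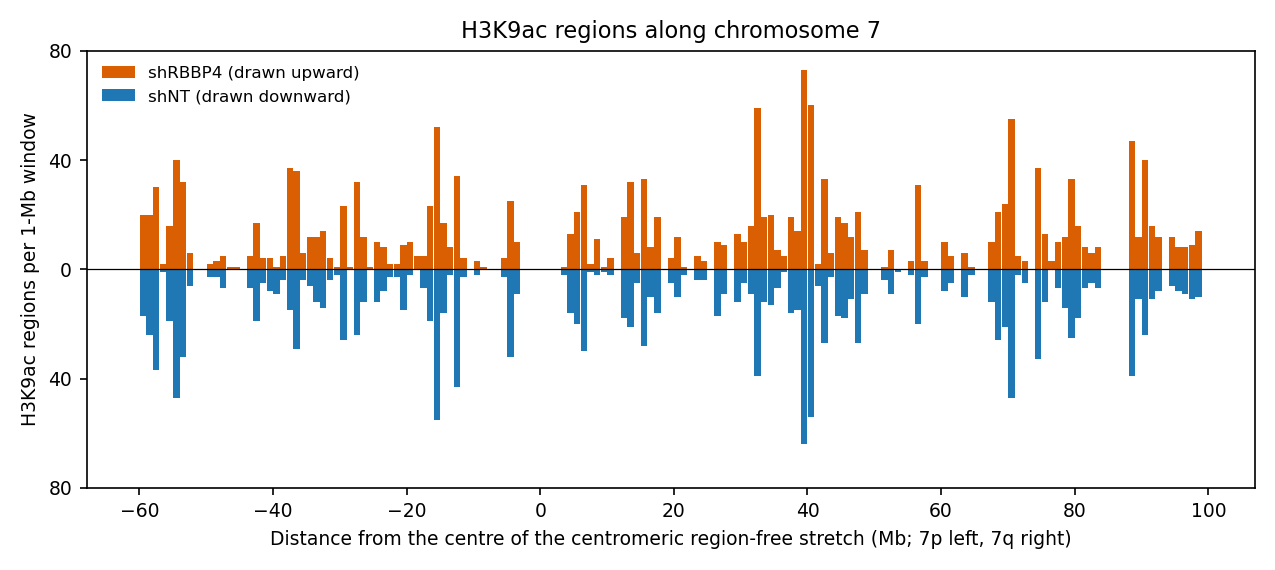
Number of H3K9ac regions in each 1-Mb window of chromosome 7 (vertical axis), by distance in Mb from the centre of the region-free stretch at the centromere (horizontal axis), with shRBBP4 drawn upward and shNT downward. The densest window, on 7q, holds 73 shRBBP4 and 64 shNT regions.

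The windows with most regions were full in both libraries. Of the windows, 128 held at least 1 region, and the fullest was 99 to 100 Mb on 7q with 73 shRBBP4 and 64 shNT regions. The next were 100 to 101 Mb with 60 and 54, 44 to 45 Mb on 7p with 52 and 55, 130 to 131 Mb with 55 and 47, and 92 to 93 Mb with 59 and 39. Among the 91 windows whose shRBBP4 and shNT regions together numbered 10 or more, 31 had fewer shRBBP4 than shNT regions, 10 had equal numbers and 50 had more. That is 34.1% with fewer, where 13.0% of the 1674 such windows of all chromosomes had fewer. The rule that chose the chromosome uses the same counts, so this excess is built in. In lists of equal length the balance turned over, and 75.6% of such windows of chromosome 7 had fewer shRBBP4 regions. The share over all chromosomes in lists of equal length was not computed, and the 13.0% belongs to the full lists. By arm, 16 of 33 windows on 7p and 15 of 58 on 7q had fewer in the full lists.

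The extreme windows were small. The highest ratios were at 68 to 69 Mb on 7q, with 11 shRBBP4 and 2 shNT regions, and on 7p at 40 to 41 Mb, with 10 and 2, and 46 to 47 Mb, with 8 and 2. The lowest were on 7p at 20 to 21 Mb, with 1 shRBBP4 and 9 shNT regions, and 19 to 20 Mb, with 4 and 8, and on 7q at 86 to 87 Mb, with 10 and 17. In all, 7 of the 91 windows had at least 2-fold more shRBBP4 regions, against 22.9% of windows over all chromosomes.

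Strong regions were spread differently over the chromosome in the 2 lists. Strength is given as the percentile of a region's score in its own whole list, since the scale of the score is not stated, and ranks from lists of different lengths show no change of a region. Above percentile 90 stood 184 of the 1823 shRBBP4 regions (10.1%, 95% interval 8.75 to 11.6) and 227 of the 1660 shNT regions (13.7%, 12.1 to 15.4). Over all chromosomes 9.75% of shRBBP4 and 10.1% of shNT regions stood there. On 7p the shares were 7.38% in shRBBP4 (5.47 to 9.69) and 13.5% in shNT (10.9 to 16.4). On 7q they were 11.6% in shRBBP4 (9.79 to 13.5) and 13.8% in shNT (11.7 to 16). On 7q without 90 to 95 Mb they were 8.85% (7.21 to 10.7) and 12.8% (10.8 to 15.1).

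Above percentile 99 the shRBBP4 share was higher on 7q than on 7p, and the shNT shares were alike. In shRBBP4, 2 of 637 regions on 7p (0.314%, 0.0380 to 1.13) and 29 of 1186 on 7q (2.45%, 1.64 to 3.49) stood there. In shNT, 7 of 630 regions on 7p (1.11%, 0.448 to 2.28) and 11 of 1030 on 7q (1.07%, 0.534 to 1.90) did. Over all chromosomes 394 of 39303 shRBBP4 and 269 of 26828 shNT regions stood there, 1% of either list, so 31 of 1823 shRBBP4 regions (1.70%, 1.16 to 2.41) is above it and 18 of 1660 shNT regions (1.08%, 0.644 to 1.71) is near it. Of the 31, 20 lay between 90 and 95 Mb on 7q, where 4 of the 18 shNT regions lay. Without that stretch 11 of 1699 shRBBP4 regions (0.647%, 0.324 to 1.16) and 14 of 1582 shNT regions (0.885%, 0.485 to 1.48) stood above percentile 99, so the shRBBP4 share was then below 1%. On 7q without it, 9 of 1062 shRBBP4 regions (0.847%, 0.388 to 1.60) and 7 of 952 shNT regions (0.735%, 0.296 to 1.51) did. That shRBBP4 interval overlaps the one of 7p.

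That 5-Mb stretch of 7q had the chromosome's largest share of shRBBP4 regions above percentile 90. It was picked after the values had been seen, so its values are a description. It held 124 shRBBP4 and 78 shNT regions, a ratio of 1.59 (1.19 to 2.14), and without it the chromosome had 1699 and 1582, a ratio of 1.07. Another stretch of 7q, 150 to 155 Mb, had a ratio of 1.63. The interval of the 90 to 95 Mb stretch includes 1.465, the ratio of the whole lists. Regions above percentile 90 made up 34.7% of its shRBBP4 regions, the highest share among 465 bins of 5 Mb with at least 40 regions genome-wide, where the median bin had 8.81%. They made up 25.6% of its shNT regions, the fifth highest share, where the median bin had 8.91%. Both shares lay above the median bin of their own list. The adjoining bin from 85 to 90 Mb had 21.9% in shRBBP4 and 26.3% in shNT, and that from 95 to 100 Mb 19.5% and 18.4%. Without the 90 to 95 Mb stretch, 8.30% of chromosome 7 shRBBP4 regions (7.03 to 9.71) and 13.1% of shNT regions (11.5 to 14.8) stood above percentile 90.

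Of 45 clusters in this stretch, 28 were called in both libraries, 14 in shRBBP4 only and 3 in shNT only, close to the division over all chromosomes, where 57.7% were in both, 35.0% in shRBBP4 only and 7.26% in shNT only. A cluster here is a group of regions of both lists joined across gaps of up to 1 kb. In 27 of the 28 shared clusters the shRBBP4 regions covered more bases, and they covered fewer in 1 of 28 (3.57%), where 27.9% of shared clusters of all chromosomes had fewer. The exception was the last, from 94330659 to 94331406, with 176 bp covered in shRBBP4 and 307 bp in shNT. The median shared cluster had 1573.5 bp covered in shRBBP4 and 837.5 bp in shNT, and the median of the log2 ratio was 0.78 (0.51 to 1.14, an exact interval over clusters). Over all chromosomes that median was 0.41.

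The best region of the shared cluster stood above percentile 99 in 18 of the 28 in shRBBP4 and in 4 of the 28 in shNT. The stretch was picked with these ranks known, and that share over all shared clusters was not computed. The median best percentile was 99.4 in shRBBP4 and 88.0 in shNT, against 78.7 and 70.3 for shared clusters of all chromosomes. Widest among the 28 was the cluster from 92459014 to 92466732, with 7 regions covering 6011 bp in shRBBP4 and 7 covering 4485 bp in shNT. It was strong in both lists, at percentile 99.58 in shRBBP4 and 98.98 in shNT. The cluster from 94283630 to 94286757 differed far more, with 6 regions covering 1774 bp in shRBBP4 and 2 covering 402 bp in shNT, at best percentiles 98.4 and 31.6. The cluster from 90892616 to 90894849 stood at 99.3 in shRBBP4 and 46.8 in shNT, with 1401 and 1011 bp covered. A cluster from 91873372 to 91877765 was alike in both, with 3767 and 3635 bp covered at percentiles 99.97 and 99.2.

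**Figure D2:**
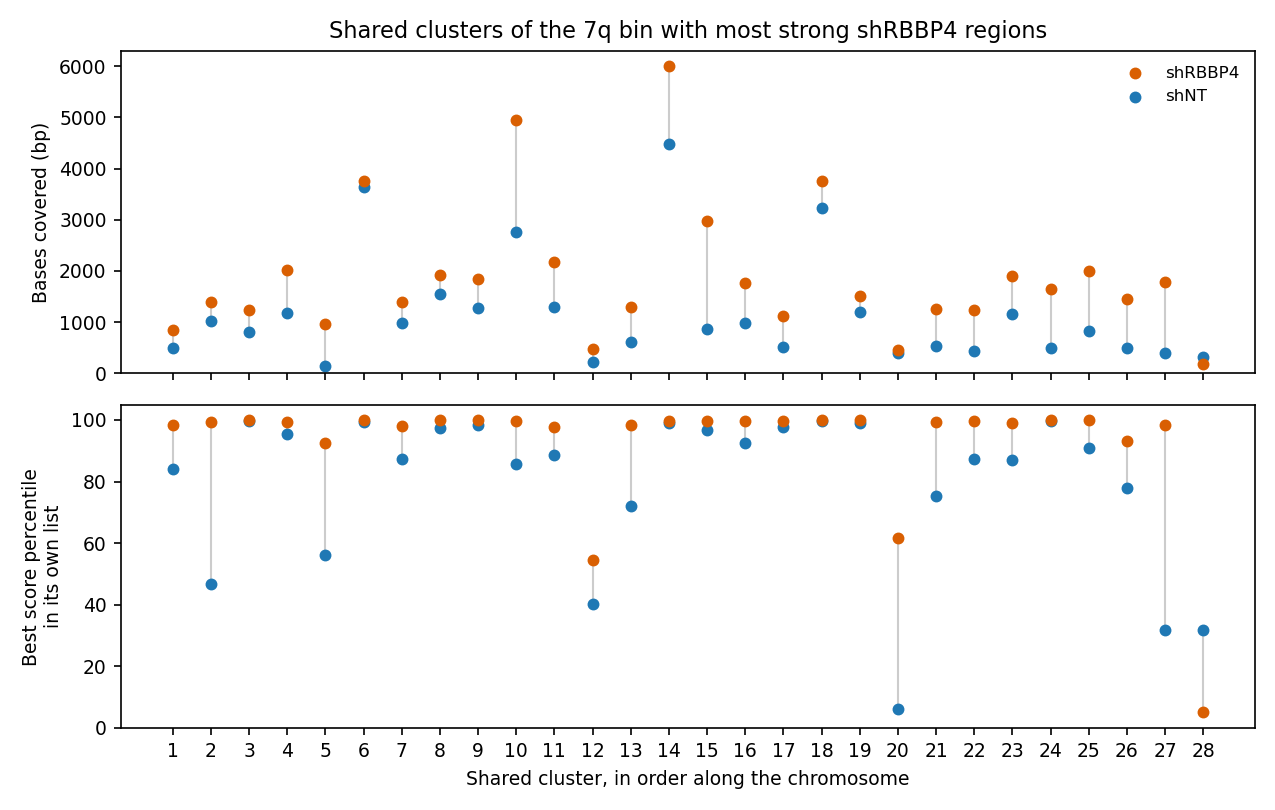
The 28 clusters called in both libraries between 90 and 95 Mb on 7q, in order along the chromosome (horizontal axis), with bases covered in bp (upper panel) and the best score percentile in the library's own list (lower panel). Each point is 1 cluster in shRBBP4 or shNT, and in 27 clusters the shRBBP4 point of the upper panel is the higher.

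The highest-scoring chromosome 7 regions came mainly from this stretch in shRBBP4. The first was 94020951 to 94021462 at percentile 99.98, and the shNT region over it stood at 99.5. The second, 91873802 to 91875198, stood at 99.97 and its shNT counterpart at 99.2. The third, 93549593 to 93553155, was also the widest shRBBP4 region of the chromosome, 3563 bp with 2 shNT regions over 90.4% of it. The fifth, 94024969 to 94025497, stood at 99.92 and its counterpart at 90.9.

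The fourth shRBBP4 region lay on 7p, from 2393780 to 2394145, at percentile 99.92. Its counterpart, 2393783 to 2394435, was the highest-scoring shNT region of the chromosome at 99.99 and the fourth of the whole shNT list. After it in shNT came 93551373 to 93552915 on 7q, within the widest shRBBP4 region, and 99006329 to 99006505 at 99.8, whose shRBBP4 counterpart stood at 99.6. The other two were 104653311 to 104653480 at 99.6, with its counterpart at 98.4, and 26238498 to 26239948 on 7p at 99.6, with its counterpart at 93.6. Each of these 5 leading regions per list had a counterpart in the other.

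Regions with no counterpart within 1 kb were weaker. In shRBBP4 the strongest were 92262935 to 92263635, 93927065 to 93927598 and 93925801 to 93926690, at percentiles 96.2, 96.0 and 95.2. They were followed by 92381812 to 92381964 at 91.0 and, on 7p, 33914328 to 33914623 at 90.6. The first 4 lay in the 90 to 95 Mb stretch. In shNT the strongest stood at 87.4, from 91923771 to 91923926, and the next at 86.0, from 100887746 to 100888023. The remaining ones were 27784637 to 27784784 and 37071036 to 37071257 on 7p, at 85.5 and 84.2, and 105028098 to 105028257 at 78.4. Over all chromosomes, 2.84% of the shRBBP4 regions above percentile 90 and 0.148% of the shNT ones had no counterpart within 1 kb.

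The chromosome's lists were more evenly shared than those of the rest of the genome. Of the shRBBP4 regions, 1156 of 1823 overlapped an shNT region by at least 1 bp (63.4%, 61.2 to 65.6), where 50% of all shRBBP4 regions (19669 of 39303) did. Of the shNT regions, 1129 of 1660 overlapped an shRBBP4 region (68.0%, 65.7 to 70.3), where 77.0% of all shNT regions did. Such shares follow the lengths of the lists, which are nearly equal on this chromosome because it was chosen that way. Within 1 kb, 84.0% of shRBBP4 and 89.5% of shNT regions had a counterpart, against 74.3% and 93.8% over all chromosomes. On 7p, 68.0% of shRBBP4 and 63.8% of shNT regions overlapped, and on 7q 61.0% and 70.6%.

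Sharing went with strength in both lists. Above percentile 90, 174 of 184 shRBBP4 regions (94.6%, 90.2 to 97.4) and 222 of 227 shNT regions (97.8%, 94.9 to 99.3) were shared. In the lowest 10% of each list, 72 of 191 shRBBP4 regions (37.7%) and 83 of 177 shNT regions (46.9%) were. The shares of strong regions were near those over all chromosomes, where 3588 of 3832 shRBBP4 regions (93.6%) and 2672 of 2699 shNT regions were shared. In the lowest 10% over all chromosomes, 970 of 4049 shRBBP4 regions and 1507 of 2678 shNT regions (56.3%) were shared. At the median, shared shRBBP4 regions were 268 bp wide and shared shNT regions 293 bp, and the others 158 and 161 bp. A wider region is more likely to touch another, and strength was not separated from width.

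Joining within each library gave 791 shRBBP4 and 740 shNT clusters. The median shRBBP4 cluster spanned 763 bp and the median shNT cluster 761 bp, with a mean of 2.30 and 2.24 regions each. A single region made up 40.6% of the shRBBP4 and 42.0% of the shNT clusters. Over all chromosomes the spans were 748 and 651 bp, and 41.8% and 44.8% of clusters were a single region. The arms differed in opposite ways: on 7p the median span was 630 bp in shRBBP4 and 756 bp in shNT, and on 7q 839 and 762 bp. Clusters of at least 2 kb numbered 34 of 286 in shRBBP4 and 50 of 281 in shNT on 7p, and 81 of 505 and 59 of 459 on 7q. Over all chromosomes 2786 of 17155 shRBBP4 clusters (16.2%) and 1705 of 12429 shNT clusters (13.7%) were that wide.

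The lists together gave 896 clusters, of which 593 (66.2%, 63.0 to 69.3) held regions of both libraries, 180 (20.1%) of shRBBP4 only and 123 (13.7%) of shNT only. Over all chromosomes these shares were 57.7%, 35.0% and 7.26%. Shared clusters spanned 1471 bp at the median, clusters of shRBBP4 only 194 bp and clusters of shNT only 156 bp. Part of this is built in, since a shared cluster joins regions of each list. Most clusters of 1 library were a lone region, 126 of the 180 in shRBBP4 (70%) and 102 of the 123 in shNT (82.9%), near the 71.3% and 86.7% over all chromosomes.

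**Figure D3:**
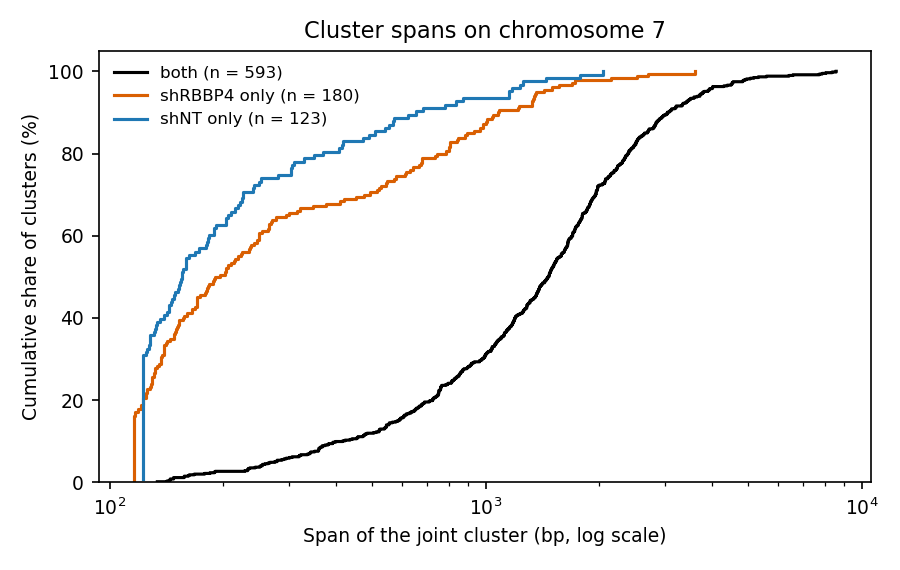
Cumulative share of the 896 joint clusters of chromosome 7 (vertical axis, %) by span in bp on a log scale (horizontal axis), for clusters called in both libraries, in shRBBP4 only and in shNT only. Shared clusters lie to the right, with a median of 1471 bp against 194 and 156 bp.

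The widest joint clusters were shared and held many regions. The first, on 7p from 23506442 to 23515006, spanned 8.57 kb with 13 regions in each library, covering 3280 bp in shRBBP4 and 4419 bp in shNT. The second, on 7q from 130594668 to 130603017, had 10 shRBBP4 regions over 6272 bp and 8 shNT regions over 6122 bp. It includes one of the widest single shNT regions, from 130595833 to 130597959, 2127 bp. The third, on 7p from 5459474 to 5467509, had 4240 bp covered in shRBBP4 and 5196 bp in shNT, and the fourth, on 7q from 104650665 to 104658520, had 3695 and 4455 bp. The fifth is the cluster at 92459014 named above. In 3 of these 5 clusters the shNT regions covered more. Among single regions, those next in width to the one at 93549593 in shRBBP4 ran from 99155137 to 99158338 and from 92460206 to 92463303, 3202 and 3098 bp. The widest shNT region, from 83822091 to 83824298, measured 2208 bp, and another, from 36430133 to 36432178 on 7p, 2046 bp.

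Shared clusters on 7p were covered less by shRBBP4 than by shNT regions at the median, and those on 7q slightly more. On 7p the median shared cluster had 487 bp covered in shRBBP4 and 758 bp in shNT, and the median log2 ratio over 217 clusters was -0.39 (-0.47 to -0.26). On 7q the medians were 698 and 656.5 bp, with a log2 ratio of 0.07 (0.01 to 0.16) over 376 clusters. Without the 90 to 95 Mb stretch the 7q value was 0.04 (-0.02 to 0.10). Of the 7p clusters, 156 of 217 (71.9%) were covered less in shRBBP4, and of the 7q clusters 166 of 376 (44.1%), where 27.9% of shared clusters of all chromosomes were. At least 2-fold less was covered in 40 clusters on 7p (18.4%) and 27 on 7q (7.18%), against 4.22% over all chromosomes. At least 2-fold more was covered in 12 on 7p (5.53%) and 50 on 7q (13.3%), against 25.1%. On chromosome 7 as a whole, 11.3% were covered at least 2-fold less and 10.5% at least 2-fold more. On chromosome 8 these shares were 12.3% and 12.5%, and on chromosome 16 they were 6.50% and 13.4%. Clusters covered less in shRBBP4 made up 54.3% on chromosome 7, 49.3% on chromosome 8 and 45.1% on chromosome 16. Chromosome 7 as a whole had a median log2 ratio of -0.075 (-0.118 to -0.005), where that of all chromosomes was 0.41. Chromosomes 8 and 16, which also have low ratios, had medians of 0.02 (-0.10 to 0.11) and 0.07 (0.01 to 0.13) as whole chromosomes. These are close to 7q, and the interval of chromosome 8 overlaps that of chromosome 7. The arms of chromosomes 8 and 16 were not computed, so 7p has no like arm beside it. For chromosomes 13 and X, with low ratios of 1.104 and 1.20, this median was not computed. Covered length belongs to the same contrast that chose the chromosome, and the difference between the arms was not tested.

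On 7p, the median log2 ratio was below 0 in 10 of the 10 bins of 5 Mb that had at least 10 shared clusters. Of all 26 such bins of chromosome 7, 9 had a median above 0, all on 7q. This median was not computed for bins of other chromosomes. The lowest of these was 15 to 20 Mb, at -1.25 over only 10 shared clusters. On 7q the bin from 90 to 95 Mb was the highest of the chromosome, at 0.78, and its neighbour from 95 to 100 Mb had 0.37. Bins nearer the centromere, from 65 to 70 Mb and from 70 to 75 Mb, had -0.11 and -0.24. The lowest such bin of 7q was 125 to 130 Mb, at -0.34, and 85 to 90 Mb had -0.18. The bins from 100 to 110 Mb and from 130 to 140 Mb lay near 0, between -0.05 and 0.02. The 4 bins from 140 Mb to the end of 7q were above 0, at 0.37, 0.24, 0.50 and 0.26.

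**Figure D4:**
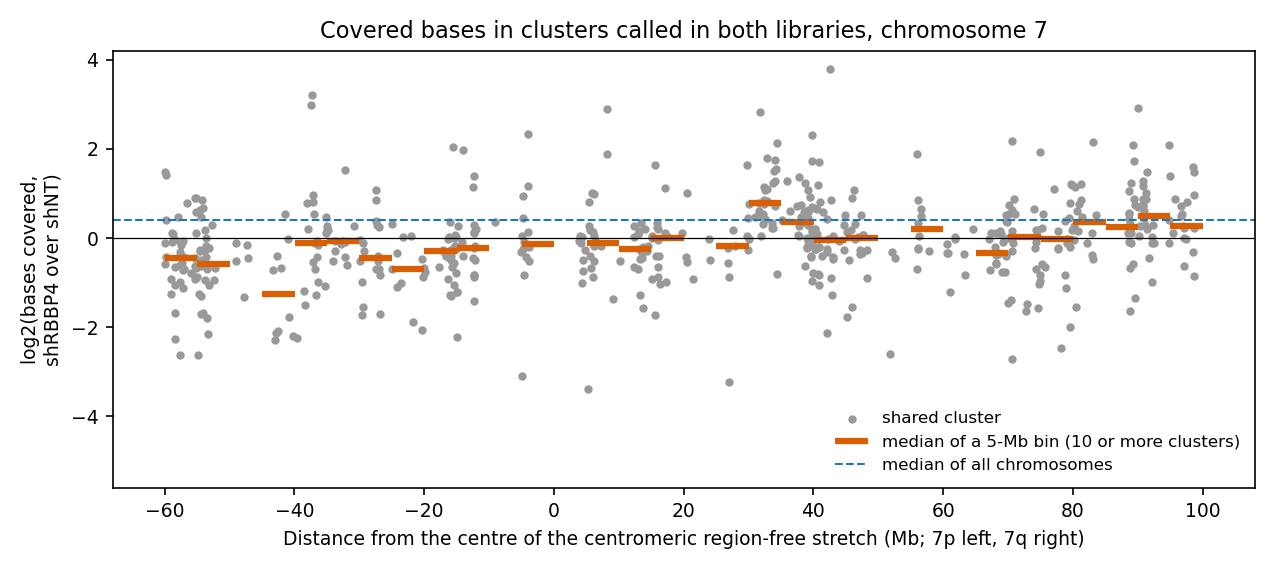
Log2 ratio of bases covered by shRBBP4 over shNT regions (vertical axis) for each of the 593 shared clusters, by distance in Mb from the centre of the centromeric region-free stretch (horizontal axis). Orange lines are medians of 5-Mb bins with at least 10 clusters, below 0 in all 10 such bins of 7p, and the dashed line is the median of 0.41 over all chromosomes.

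The window from 55 to 56 Mb on 7p, which holds EGFR on the hg19 map, had 25 regions in shRBBP4 and 32 in shNT (ratio 0.781, 0.444 to 1.36). They covered 6.11 kb in shRBBP4 and 7.84 kb in shNT. It was the eighteenth fullest window of the chromosome. In RefSeq's gene order on GRCh38.p14, SEC61G, which encodes a subunit of the protein translocation channel, precedes EGFR, and LANCL2 and VOPP1 follow it. No hg19 annotation was at hand, and clusters are therefore given by position and not assigned to these genes.

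Of 14 joint clusters in this window, 9 were shared, 2 were in shRBBP4 only and 3 in shNT only, beside 57.7%, 35.0% and 7.26% over all chromosomes. The first, from 55086883 to 55089294, differed most in region number, with 1 shRBBP4 region of 137 bp at percentile 21.2 and 6 shNT regions over 1174 bp, the best at 29.4. These ranks are low in both lists. A chain of 4 further shared clusters followed at short distances. From 55132171 to 55134575 there were 4 regions in each library, over 1271 bp in shRBBP4 and 1236 bp in shNT, with the best at percentiles 85.9 and 93.9. The strongest shRBBP4 region of the window, at percentile 93.9, formed the cluster from 55141970 to 55142594, where the best shNT region stood at 89.8. From 55153737 to 55155337 the best regions stood at 44.3 in shRBBP4 and 45.9 in shNT. The widest cluster, from 55197905 to 55202434, held 6 shRBBP4 regions over 1546 bp and 8 shNT regions over 1837 bp, at best percentiles 83.2 and 94.7.

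Beyond this chain the clusters were sparser. From 55432486 to 55434920, 4 shRBBP4 regions covered 820 bp and 3 shNT regions 1453 bp, and the best stood at 80.3 in shRBBP4 and 98.5 in shNT, the strongest shNT region of the window. From 55638306 to 55639958 the best regions stood at 89.0 in both lists, with 519 bp covered in shRBBP4 and 700 bp in shNT. Small clusters from 55323140 to 55323284 and from 55954965 to 55955841 had 1 region of each library. The neighbouring window from 54 to 55 Mb had 4 shRBBP4 and 3 shNT regions, with best percentiles of 93.3 and 99.4. That from 56 to 57 Mb had 10 and 9, with 89.9 and 98.3. Windows from 52 to 54 Mb and from 57 to 60 Mb had none in either list.

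The window from 116 to 117 Mb on 7q, which holds MET on the hg19 map, had 31 regions in shRBBP4 and 20 in shNT (ratio 1.55, 0.856 to 2.87). They covered 9.23 kb in shRBBP4 and 7.02 kb in shNT. Both this interval and that of the EGFR window include 1. The ratio of the whole lists, 1.465, lies within this interval and above that of the EGFR window. In RefSeq's gene order CAV2 and CAV1, which encode caveolins, the coat proteins of caveolae, precede MET. CAPZA2, which encodes a subunit of the actin capping protein, and ST7 follow it.

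Of its 11 joint clusters, 7 were shared, 4 were in shRBBP4 only and 0 in shNT only, again beside 57.7%, 35.0% and 7.26% over all chromosomes. The widest, from 116163928 to 116168772, had 9 shRBBP4 regions over 2631 bp and 6 shNT regions over 3072 bp, at best percentiles 91.1 and 91.8. It was the strongest shRBBP4 cluster of the window. The strongest shNT region, at percentile 94.4, lay in the cluster from 116151507 to 116152810, where the best shRBBP4 region stood at 71.8. The cluster from 116312512 to 116314240 was alike in both, with 4 regions each over 981 bp in shRBBP4 and 949 bp in shNT at percentiles 81.5 and 77.2. From 116502698 to 116504917, 1528 bp were covered in shRBBP4 and 968 bp in shNT, with the best at 82.7 and 94.2. From 116593109 to 116595026, 1018 and 727 bp were covered, with the best at 89.9 and 86.6.

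Smaller shared clusters of the MET window ran from 116035127 to 116035549, at percentiles 88.2 in shRBBP4 and 7.37 in shNT, and from 116140450 to 116141187, at 40.5 and 44.4. Of the clusters in shRBBP4 only, the strongest ran from 116346981 to 116347780, with 2 regions over 663 bp and a best percentile of 83.2. The windows around were nearly empty. From 115 to 116 Mb there were 3 shRBBP4 and 2 shNT regions, and from 117 to 118 Mb 3 in each list, with best percentiles of 95 and 97.1.

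**Figure D5:**
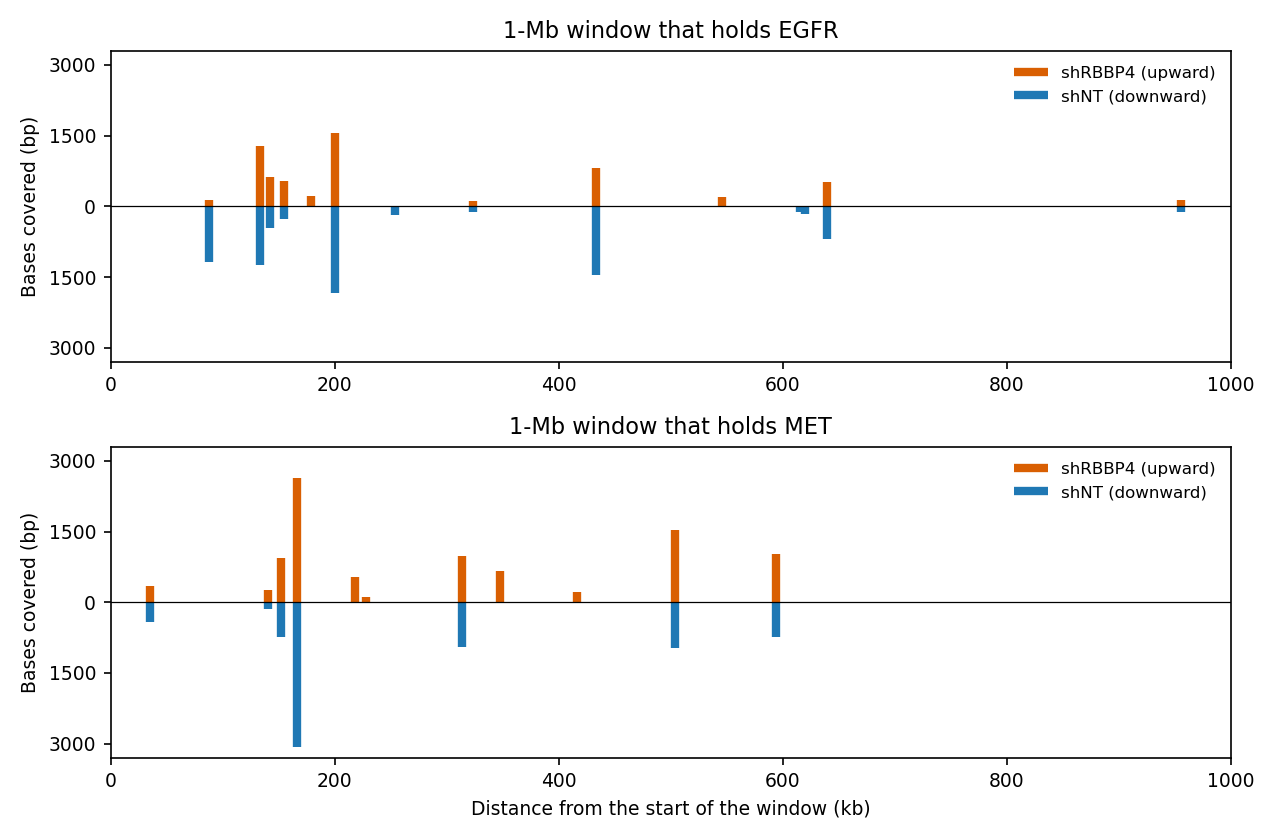
Bases covered in each joint cluster (vertical axis, bp; shRBBP4 upward, shNT downward) by distance in kb from the start of the window (horizontal axis), for the 1-Mb windows that hold EGFR (upper panel) and MET (lower panel). The first EGFR-window cluster has 137 bp in shRBBP4 and 1174 bp in shNT, and the widest MET-window cluster has 2631 bp and 3072 bp.

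The number of reads behind the lists is unknown, so no difference in the number, width or rank of regions here measures an amount of acetylation. Copy number of chromosome 7, its arms or the 90 to 95 Mb stretch was not measured here and its part in these counts was not tested.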

How the data were processed

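H3K9ac ChIP-seq was done in T98G cells with 1 library per shRNA. Regions were called separately per library. Per the file headers, each track line has macs2 and PE in it. Per the submitters' processing notes, SICER, Picard, BWA and bcl2fastq 2.15.0 took part in unstated roles, and hg19 and GRCh37 are the listed builds. Neither threshold, caller version nor use of the input is given in the sources used here. The deposited score of each region has no stated scale and was used only for percentiles within its own list, with ties at their mean rank. Depth is unknown.

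Computed here were overlaps of at least 1 bp, clusters joined across gaps of up to 1 kb, 1-Mb windows and 5-Mb bins by region start, exact Clopper-Pearson intervals for shares, exact conditional intervals for ratios of counts and binomial order-statistic intervals for medians, all at 95% and for counting error only. The functions were tested on simulated lists. Arms were split at the centromere, where both lists have no region.

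Chromosome 7, the lists and the rules were chosen with earlier results of these data known. The rule for regions named by position takes, per library, the 5 highest-scoring, the 5 highest-scoring without a counterpart within 1 kb and the 3 widest. It also takes the 5 widest joint clusters, the 5 fullest windows, the 3 highest and the 3 lowest window ratios, and the shared or strong clusters of the EGFR and MET windows. The other clusters named, those between 90 and 95 Mb among them, and the 5-Mb bins were chosen after their values were seen. EGFR and MET were placed in their 1-Mb windows from general knowledge of hg19. No genome of hg19 was at hand, so no sequence of a region is printed. Intervals came from scipy 1.17.1, tables from pandas 2.3.3 with numpy 2.4.6 and figures from matplotlib 3.10.9, under Python 3.11.15.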

Additional observations from a re-analysis of the deposited data

How the results depend on the processing

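No paired analysis was possible because shRBBP4 and shNT were each sequenced as a lone H3K9ac library. Of 70 alternative values, 48 stayed within the interval of the value reported (counts of clusters: within 1.5 times), 20 moved outside and 2 turned to the other side of 1 from a value whose interval excluded 1. The interval of the 7p ratio includes 1, and its value of 1.01 became 0.678 in lists of equal length, 0.828 by covered length and 0.958 in the higher-scoring 50%. Causes were not tested, except that shorter lists hold fewer regions by construction. In lists of equal length the chromosome 7 ratio was 0.761 and that of 7q 0.812, the shared shares were 72.9% of shRBBP4 and 57.3% of shNT regions, and 75.6% of windows had fewer shRBBP4 regions. All chromosomes together have a ratio of 1 in such lists by construction. By covered length the ratio of the chromosome was 1.01. With 50% of the shorter region overlapping, 57.4% of shRBBP4 and 61.9% of shNT regions were shared, with reciprocal 50% overlap 33.2% and 36.4%, and within 1 kb 84.0% and 89.5%. Joining across 500 bp gave 59.0% shared, 24.3% shRBBP4 only and 16.8% shNT only clusters. The higher-scoring 50% of each list gave 60.4%, 23.4% and 16.2%, and 488 shNT clusters. Without 90 to 95 Mb, added after seeing the data, 8.30% of shRBBP4 regions stood above percentile 90. The strongest 5000 regions of each list, also added, held 243 from chromosome 7 in shRBBP4 and 416 in shNT. Of the whole lists, chromosome 7 supplied 4.64% in shRBBP4 and 6.19% in shNT. The log2 ratio of covered bases kept its sign on the chromosome and on each arm with gaps of 500 bp and 2 kb and in the higher-scoring 50%. The higher-scoring 50% leaves the shRBBP4 list the longer. This log2 ratio was not computed in lists of equal length, the setting that took the region ratios of the chromosome and of 7q below 1. Nor were the shares of joint clusters and the EGFR and MET windows. Unknown depth limits every comparison of number.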

Other observations

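Chromosome 7 had long stretches without a region in either list. The longest, at the centromere, ran from 56174153 to 63774396, or 7.60 Mb. The next ran from 143599243 to 148394983 on 7q (4.80 Mb), from 51101980 to 54825674 on 7p (3.72 Mb), which ends before the EGFR window, and from 108211804 to 111846136 on 7q (3.63 Mb), which lies before the MET window. The stretch on 7q that ends at 148394983 was followed by the seventh fullest window of the chromosome, from 148 to 149 Mb, with 47 shRBBP4 and 39 shNT regions.

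Among the 26 bins of 5 Mb with at least 10 shared clusters, 3 had a ratio of region numbers above 1.465, the ratio of the whole lists. The share of such bins over all chromosomes was not computed. A low count is built in, since the chromosome was chosen for its low ratio. Besides 90 to 95 Mb the 3 bins were 150 to 155 Mb and 115 to 120 Mb. The bin from 150 to 155 Mb held 80 shRBBP4 and 49 shNT regions (1.63, 1.13 to 2.38), and the bin from 115 to 120 Mb, which includes the MET window, held 37 and 25 (1.48, 0.867 to 2.56). Above percentile 90 stood 5 of 80 shRBBP4 (6.25%) and 2 of 49 shNT regions (4.08%) from 150 to 155 Mb. From 115 to 120 Mb, 3 of 37 (8.11%) and 5 of 25 (20%) did. Over all chromosomes the shares were 9.75% and 10.1%, and the counts in these bins are small.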
